A study of Homo sapiens with 12 samples.

Results

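Follistatin, the activin subunits and the feedback genes of transforming growth factor-β (TGF-β) signalling were followed in spheroids grown from HepG2, an established line of human hepatocellular carcinoma cells. The 10 genes are FST, FSTL3, INHBA, INHBB, INHBE, TGFB1, TGFB2, SMAD7, BAMBI and ID1, and all 10 were measured among the 18404 genes of the array table. The list was chosen by pathway membership and selected on an earlier result of these arrays, the fitted difference of FST between HIF-2α knockdown and wild type. The differences of FST that involve the HIF-2α knockdown arrays are therefore given as a description, without a p-value. Each gene is represented by the probe set with exactly 1 gene symbol that had the highest mean over the 12 arrays, and each of the 10 had only 1 such probe set. The spheroids were 10 days old, had grown in stirred flasks and came from wild type cells, cells with HIF-1α knocked down and cells with HIF-2α knocked down, 4 arrays for each of the 3. HIF-1α and HIF-2α, encoded by HIF1A and EPAS1, are the subunits through which hypoxia-inducible factors respond to oxygen. The sample descriptions mark the knockdown cells as sh1alpha and sh2alpha, and no label names a control construct in the wild type cells. A difference from wild type therefore includes whatever else set the lines apart, and the knockdown cannot be told apart from it. The design text speaks of 4 different spheroid experiments of the wild type and the knockdown cells, and no label says whether a knockdown line was 1 clone.

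Activins are dimers of inhibin β subunits and, like the TGF-β ligands, signal through paired serine/threonine kinase receptors to SMAD transcription factors. Follistatin binds activins and keeps them from their receptors, and follistatin-like 3 does the same. Inside the responding cell the pathway restrains itself: SMAD7 blocks the receptor, BAMBI acts as a pseudoreceptor without a kinase, and ID1 is a target of the bone morphogenetic protein (BMP) branch. In liver, activin and TGF-β restrain hepatocyte growth, and the activin E subunit INHBE is made mainly by hepatocytes.

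The values are the authors' deposited log2 expression values, and n = 4 arrays per group throughout. HIF1A spanned 10.62 to 10.79 in wild type against 9.25 to 9.64 in its knockdown, and EPAS1 spanned 10.83 to 11.26 against 9.67 to 10.02, so neither targeted gene overlapped with wild type in its own knockdown. Replicate 2 of HIF-2α knockdown had a score of 25.3 on principal component 1, where the remaining arrays scored -11.8 to 3.26. The lowest values were shifted upwards on 3 arrays, replicates 1 and 2 of wild type and replicate 4 of HIF-2α knockdown (0.1 percentile of 6.33 to 6.35, elsewhere 6.11 to 6.23). The 9 measured hepatocyte markers had array means from 12.09 to 12.90. The array means were 6.99 to 7.14 for 5 endothelial markers and 7.27 to 7.45 for 7 fibroblast or stellate markers, near the array medians of 7.29 to 7.41. The brightest members lay above these medians, PECAM1 with group means of 7.81 to 8.25 and ACTA2 with 9.09 to 9.37. The 6 leukocyte markers averaged 8.32 to 8.55, with LYZ and CD68 the bright members and PTPRC, the defining leukocyte antigen, at group means of 6.46 to 6.55. Fewer cells that express a gene and less of its RNA per cell cannot be told apart in these bulk arrays.

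Promoter windows are shown for FST and TGFB1, whose levels differed between the knockdowns, and for TGFB2, the 1 member with the core ACGTG. Each is the 250 bases before the RefSeq transcription start on assembly GRCh38.p14, 5′ to 3′ on the gene's strand, with ACGTG and GCGTG, the cores of the hypoxia response element, in capitals on either strand (on the reverse strand they read CACGT and CACGC). The FST window is chr5:53480379-53480628 on the plus strand, the TGFB1 window chr19:41353923-41354172 on the minus strand and the TGFB2 window chr1:218345086-218345335 on the plus strand.
FST: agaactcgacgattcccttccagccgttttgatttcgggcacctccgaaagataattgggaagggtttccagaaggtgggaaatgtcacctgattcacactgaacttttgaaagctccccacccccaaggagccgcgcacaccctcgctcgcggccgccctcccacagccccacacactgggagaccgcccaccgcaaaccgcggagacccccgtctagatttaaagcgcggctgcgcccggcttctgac
TGFB1: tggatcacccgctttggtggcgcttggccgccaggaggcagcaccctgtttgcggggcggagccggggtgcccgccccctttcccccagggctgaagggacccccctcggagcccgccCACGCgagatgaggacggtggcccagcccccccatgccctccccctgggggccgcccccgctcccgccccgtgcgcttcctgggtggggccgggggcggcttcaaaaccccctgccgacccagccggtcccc
TGFB2: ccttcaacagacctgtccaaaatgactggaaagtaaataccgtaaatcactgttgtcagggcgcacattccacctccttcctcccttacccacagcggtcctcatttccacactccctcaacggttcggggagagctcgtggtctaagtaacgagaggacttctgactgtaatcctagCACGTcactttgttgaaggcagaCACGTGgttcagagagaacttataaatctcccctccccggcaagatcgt
The FST window holds neither core. The TGFB1 window holds GCGTG once, with its first base 132 bases before the start. The TGFB2 window holds ACGTG 3 times, at 72, 49 and 48 bases before the start, of which the last 2 overlap on opposite strands in a palindrome. Windows were matched for 9 of the 10 genes, all but INHBE. Of these 9, ACGTG was found in TGFB2 alone and GCGTG in TGFB1 and ID1, and 3 held either core, beside 43.1% of 27305 promoters of the same length. Taken singly, ACGTG was in 18.7% and GCGTG in 31.9% of those promoters. CAGAC, a form of the SMAD-binding element, was found in 3 of the 9 (TGFB2, SMAD7 and BAMBI) and in 37.8% of all promoters, and the GC-rich SMAD site GGCGCC in 3 (FSTL3, INHBB and BAMBI) and in 16.1%. Both were searched on both strands, and each motif was counted on its own, also where matches of different motifs overlapped. A match describes these letters and no bound site. The lack of a match says nothing about sequence outside the 250 bases.

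FST, the follistatin gene, was lower in HIF-2α knockdown than in the other groups, by more than any other of the 10 genes. Its wild type log2 values were 9.87, 9.88, 10.80 and 9.88 in replicates 1 to 4. The HIF-1α knockdown arrays gave 10.19, 10.48, 10.81 and 10.41. The HIF-2α knockdown arrays gave 8.98, 9.26, 9.12 and 8.59. Every HIF-2α knockdown array thus lay below every array of the other groups, while wild type replicate 3 lay among the HIF-1α knockdown arrays and the other wild type arrays below all of them. Mean FST was 10.11 ± 0.46 (SD) in wild type, 10.47 ± 0.26 in HIF-1α knockdown and 8.99 ± 0.29 in HIF-2α knockdown. HIF-2α knockdown was 2.17-fold lower than wild type (log2 difference -1.12, SE 0.21) and 2.79-fold lower than HIF-1α knockdown (-1.48, SE 0.21). Because the earlier call of FST put it in the list, these differences describe the arrays and support nothing further. The order of the groups was HIF-2α knockdown, wild type, HIF-1α knockdown. The last pair differed by 0.36 on the log2 scale (SE 0.21), which did not pass (limma adjusted p = 0.511, and 0.243 with the replicate block). The wild type arrays are part of the comparison that selected FST, so this test is not free of that choice and no verdict is drawn from it. Without wild type replicate 3 the difference between HIF-1α knockdown and wild type was 0.60 (adjusted p = 0.0572), and the difference between HIF-2α knockdown and wild type was -0.89. Over 21 other settings the FST difference between HIF-2α knockdown and wild type ran from -1.22 to -0.89, and it was -0.99 without HIF-2α knockdown replicate 4.

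**Figure D1:**
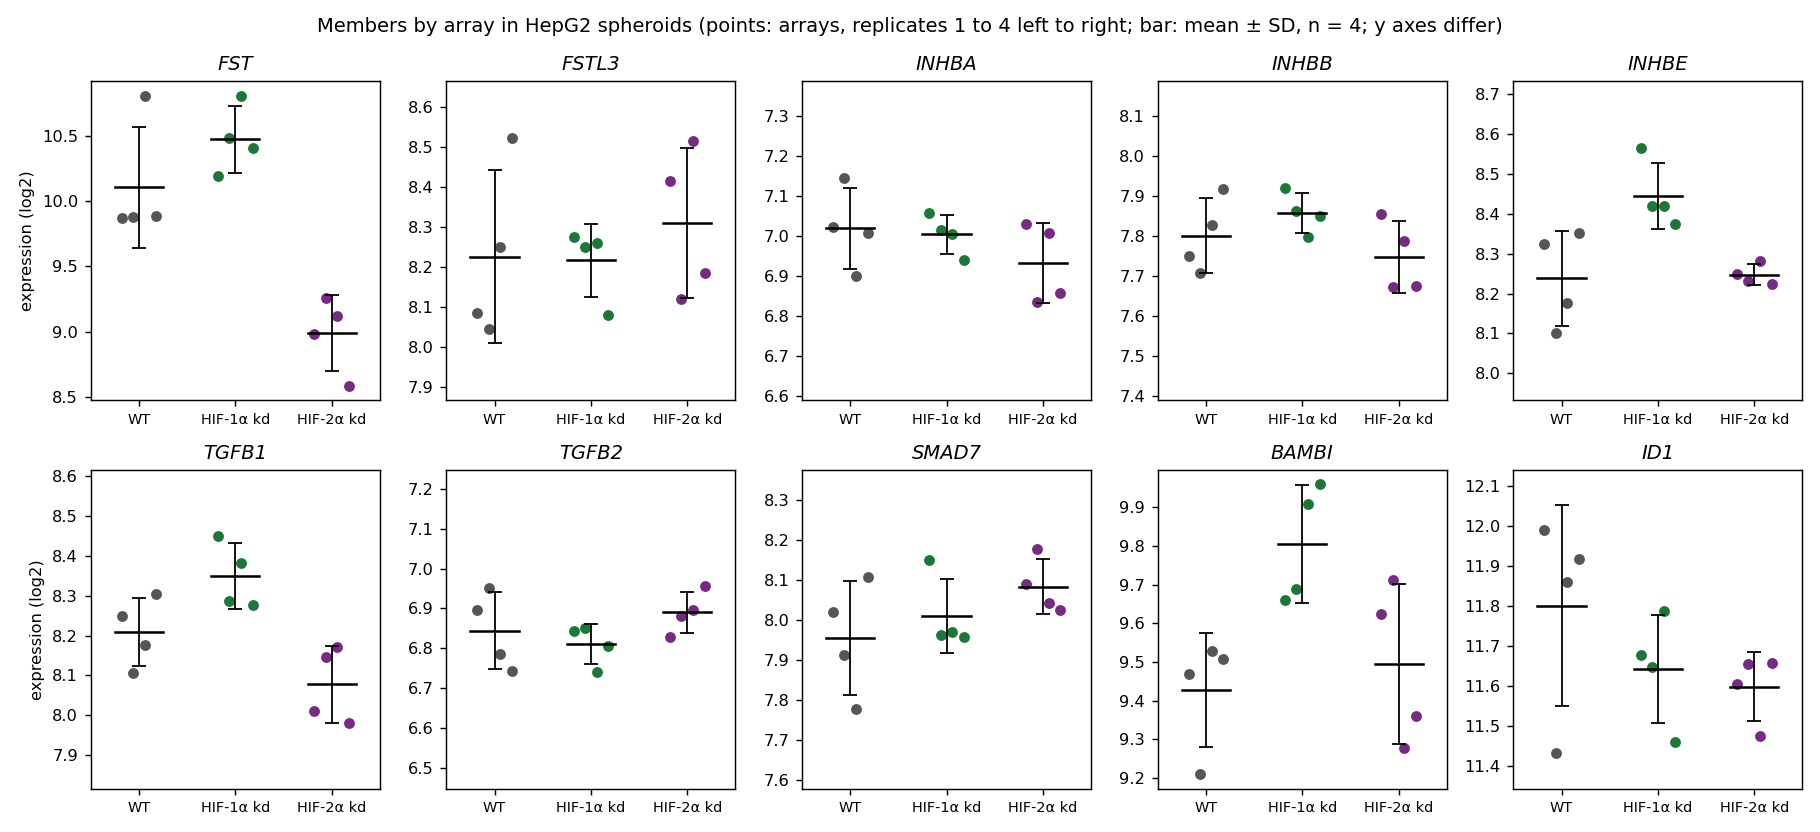
Expression of the 10 genes (y axis, log2 value; the axes differ between panels and each spans at least 0.8) for wild type spheroids (WT) and for the knockdowns (kd) of HIF-1α and HIF-2α. Points are arrays and bars are the mean ± SD of 4 arrays. FST in HIF-2α knockdown lies between 8.59 and 9.26, below all other arrays, and wild type replicate 3 at 10.80 lies above the other wild type arrays.

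The spread between arrays of a group also set FST apart from the rest of the list. Its residual SD was 0.348, against 0.0698 for TGFB2, 0.0800 for INHBB, 0.0856 for INHBE, 0.0871 for INHBA, 0.0880 for TGFB1, 0.107 for SMAD7, 0.171 for BAMBI, 0.173 for ID1 and 0.174 for FSTL3. The median over all genes was 0.102. The precision of a difference therefore ranged over the members from an SE of 0.057 for TGFB2 to 0.21 for FST. Part of the FST spread came from wild type replicate 3. The FST SD was 0.46 in wild type, 0.26 in HIF-1α knockdown and 0.29 in HIF-2α knockdown. Without that array the SE of the FST difference between HIF-1α knockdown and wild type was 0.15.

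The genes whose gene-centred profile lay closest to that of FST over the 12 arrays, by root mean square difference of log2 values, were IER3 at 0.226, FMO5 at 0.258, GPX3 at 0.285, CHST15 at 0.286 and BHLHE40 at 0.290, against a median of 0.704 over all genes. IER3 is an early response gene, FMO5 a flavin monooxygenase, GPX3 a secreted glutathione peroxidase, CHST15 a chondroitin sulfate sulfotransferase and BHLHE40 a transcription factor. These genes were picked for their likeness to FST on the same 12 arrays, so that they share its low HIF-2α knockdown values and its highest arrays follows from the choice and is no finding. The profiles differed in the HIF-1α knockdown group. CHST15 had group means of 9.07, 9.02 and 7.55 in wild type and the HIF-1α and HIF-2α knockdowns, so HIF-1α knockdown and wild type were close. FMO5 had means of 8.93, 9.46 and 8.24, and like FST was highest in HIF-1α knockdown. In wild type replicate 3 all 5 genes were at their wild type maximum, as FST was. The same held for replicate 3 of HIF-1α knockdown, where IER3 reached 11.85, FMO5 9.82 and GPX3 11.64.

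**Figure D2:**
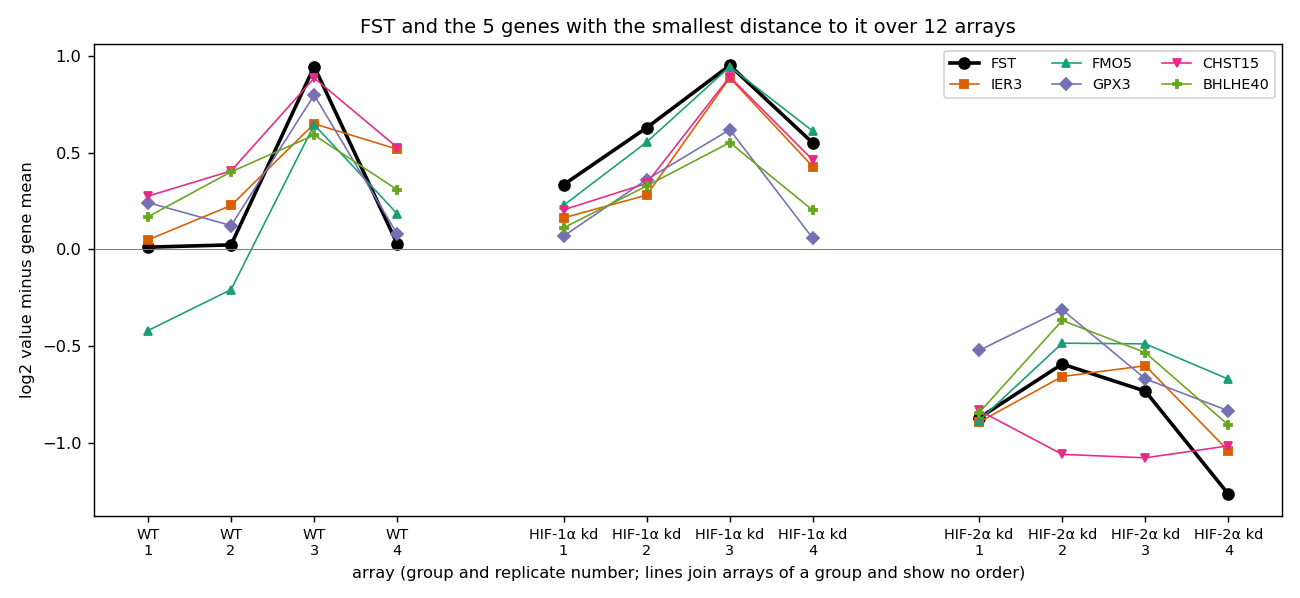
Log2 value minus the gene's mean over 12 arrays (y axis) for FST and the 5 genes nearest to it, by array (x axis, group and replicate number). Lines join the arrays of a group and show no order; the HIF-2α knockdown arrays of every gene lie below 0, and wild type replicate 3 is the highest wild type array of each gene.

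FSTL3, the second follistatin-type activin antagonist, passed in no comparison. Its log2 values were 8.09, 8.04, 8.25 and 8.52 in wild type. They were 8.27, 8.25, 8.26 and 8.08 in HIF-1α knockdown, and 8.42, 8.12, 8.52 and 8.18 in HIF-2α knockdown. The 3 groups overlapped throughout. FSTL3 differed from wild type by -0.01 ± 0.11 (SE) in HIF-1α knockdown (limma adjusted p = 0.985) and by 0.08 ± 0.11 (SE) in HIF-2α knockdown (adjusted p = 0.830). The 95% interval of the latter was -0.15 to 0.32. Because the list was selected on FST, no contrast between FSTL3 and FST is drawn.

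Among the activin β subunits, INHBE was the one whose HIF-1α knockdown arrays lay clear of wild type. Its wild type values were 8.33, 8.10, 8.18 and 8.35. Those in HIF-1α knockdown were 8.57, 8.42, 8.42 and 8.37, all above the highest wild type array. Those in HIF-2α knockdown were 8.25, 8.23, 8.28 and 8.22, inside the wild type range. The difference from wild type in HIF-1α knockdown was 0.21 (SE 0.064, limma adjusted p = 0.143), so it did not pass the threshold of 0.05. HIF-2α knockdown was below HIF-1α knockdown by 0.20 on the log2 scale without overlap (SE 0.064, adjusted p = 0.143), again short of the threshold. Against wild type, HIF-2α knockdown differed by 0.01 (95% interval -0.13 to 0.15).

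INHBB, the activin B subunit, ran from 7.71 to 7.92 in wild type, from 7.80 to 7.92 in HIF-1α knockdown and from 7.67 to 7.86 in HIF-2α knockdown. Its groups overlapped and its differences were 0.06 and -0.05 from wild type (SE 0.061 for each) and -0.11 between the knockdowns (limma adjusted p = 0.506). INHBA, the activin A subunit, ran from 6.90 to 7.15 in wild type, from 6.94 to 7.06 in HIF-1α knockdown and from 6.83 to 7.03 in HIF-2α knockdown. On all 12 arrays INHBA lay below the array's median probe set, where the table cannot tell a low level from no signal. Its differences from wild type were -0.01 in HIF-1α knockdown and -0.09 in HIF-2α knockdown, with 95% intervals of -0.15 to 0.12 and -0.23 to 0.05.

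Leaving aside FST, whose differences with HIF-2α knockdown are only described, TGFB1 was the one gene that passed the test in a comparison. Its wild type values were 8.25, 8.11, 8.18 and 8.30. In HIF-1α knockdown they were 8.45, 8.29, 8.38 and 8.28, and in HIF-2α knockdown 8.01, 8.15, 8.17 and 7.98. The knockdown groups did not overlap, and wild type lay between them and overlapped with both. TGFB1, which encodes the TGF-β1 ligand, was 1.21-fold lower in HIF-2α knockdown than in HIF-1α knockdown (log2 difference -0.27, SE 0.065, limma adjusted p = 0.0409). From wild type it differed by 0.14 ± 0.065 (SE) in HIF-1α knockdown (adjusted p = 0.374) and by -0.13 ± 0.065 (SE) in HIF-2α knockdown (adjusted p = 0.445), neither past the threshold. The call was narrow: over 21 other settings the difference between the knockdowns ran from -0.30 to -0.24 with adjusted p from 0.0174 to 0.138, and 12 of the 21 did not pass. Leaving out any 1 of the HIF-1α knockdown arrays ended it (adjusted p from 0.0634 to 0.135), as did leaving out wild type replicate 1 (0.0571), HIF-2α knockdown replicate 1 (0.0828) or HIF-2α knockdown replicate 4 (0.134).

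TGFB2, the TGF-β2 ligand, lay below the median probe set on all 12 arrays, like INHBA. It ran from 6.74 to 6.95 in wild type, from 6.74 to 6.85 in HIF-1α knockdown and from 6.83 to 6.96 in HIF-2α knockdown. The differences were -0.03 and 0.05 from wild type and 0.08 between the knockdowns (SE 0.057 for each), and none passed.

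None of the feedback and target genes BAMBI, SMAD7 and ID1 passed in a comparison. BAMBI gave 9.47, 9.21, 9.53 and 9.51 in wild type. It gave 9.66, 9.69, 9.91 and 9.96 in HIF-1α knockdown, above every wild type array, and 9.62, 9.71, 9.28 and 9.36 in HIF-2α knockdown, which overlapped with both other groups. BAMBI differed from wild type by 0.38 ± 0.11 (SE) in HIF-1α knockdown (limma adjusted p = 0.117) and by 0.07 ± 0.11 (SE) in HIF-2α knockdown (adjusted p = 0.871). Between the knockdowns the difference was -0.31 (SE 0.11, adjusted p = 0.176), and no BAMBI difference passed the threshold.

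SMAD7 gave 8.02, 7.91, 7.78 and 8.11 in wild type, 8.15, 7.96, 7.97 and 7.96 with HIF-1α knocked down and 8.09, 8.18, 8.04 and 8.03 in HIF-2α knockdown. The groups overlapped, with differences from wild type of 0.06 (95% interval -0.10 to 0.21) and 0.13 (-0.03 to 0.29). ID1 gave 11.99, 11.43, 11.86 and 11.92 in wild type, 11.68, 11.65, 11.79 and 11.46 with HIF-1α knocked down and 11.61, 11.66, 11.47 and 11.66 in HIF-2α knockdown. Wild type replicate 2 was the lowest ID1 array of all, and the other 3 wild type arrays lay above every knockdown array. ID1 differed from wild type by -0.16 ± 0.11 (SE) in HIF-1α knockdown (limma adjusted p = 0.612) and by -0.20 ± 0.11 (SE) in HIF-2α knockdown (adjusted p = 0.496). Without wild type replicate 2 these differences were -0.28 and -0.33 (adjusted p 0.142 and 0.0946).

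**Figure D3:**
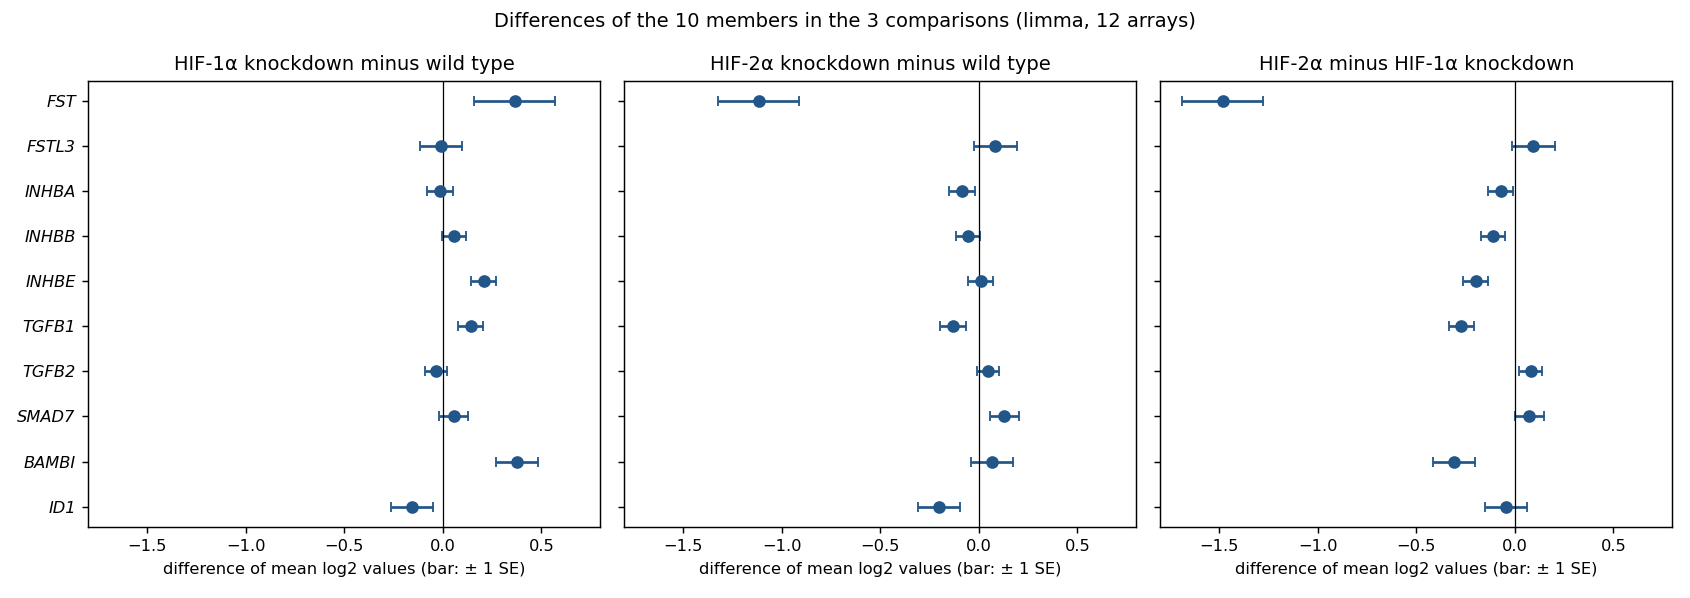
Differences of mean log2 values (x axis, bars ± 1 SE from limma) of the 10 genes (y axis) in HIF-1α knockdown minus wild type, HIF-2α knockdown minus wild type and HIF-2α minus HIF-1α knockdown. FST lies at -1.12 and -1.48 in the comparisons with HIF-2α knockdown arrays, and the other genes lie between -0.31 and 0.38.

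Counted over the list, 0 of 10 genes were called in HIF-1α knockdown against wild type by limma, where 0.962% of all genes were. At an unadjusted p under 0.05 there were 3, INHBE, TGFB1 and BAMBI (13.2% of all genes), 1 in HIF-2α knockdown against wild type (12%) and 4 between the knockdowns (13.6%). In HIF-2α knockdown against wild type the 1 call was FST, where 0.788% of all genes were called and 0.31% as lower, and in HIF-2α against HIF-1α knockdown there were 2, FST and TGFB1, both lower, where 2.77% of all genes were called and 1.8% as lower. Arrays did not overlap between the groups for 2, 1 and 3 of the 10 genes in these comparisons, against 7.84%, 5.31% and 9.08% of all genes. The 1 was FST, and the 3 were FST, INHBE and TGFB1. FST is also in the unadjusted counts of both comparisons with HIF-2α knockdown. Because the list was selected on FST, nothing is read from its calls, its unadjusted p or its lack of overlap. The median difference of the list was 0.06, -0.02 and -0.09, beside medians over all genes of 0.00494, -0.01 and -0.01. The comparisons share arrays (wild type in the first pair, and each knockdown with the third), so their values are given side by side and not as repeats of each other.

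Other signals differed with the HIF-1α knockdown group. All 9 hepatocyte markers had lower means there than in wild type (median -0.37, 0 called), with array means of 12.09 to 12.36 against 12.43 to 12.90 and no overlap. Of 23 ribosomal protein genes, taken as a marker of RNA amplification, 22 had lower means (median -0.44, 1 called), with array means of 11.74 to 12.05 against 12.05 to 12.54, which overlap narrowly; the called gene was RPL11. Against HIF-2α knockdown, whose ribosomal protein means ran from 11.86 to 12.41, all 23 had lower means in HIF-1α knockdown, as did 8 of the 9 hepatocyte markers. Their part in the INHBE, BAMBI, TGFB1 and ID1 values of the HIF-1α knockdown arrays was not tested. After quantile normalization the differences of these genes between HIF-1α knockdown and wild type were 0.14, 0.29, 0.08 and -0.06. Between HIF-2α knockdown and wild type the same lists had medians of -0.11 over 9 of 9 negative hepatocyte markers and -0.09 over 23 ribosomal protein genes, 20 of them negative, and 0 calls by limma. Among the other marker lists PDGFRB, a fibroblast and stellate cell receptor, was lower by 0.40 on the log2 scale in HIF-2α knockdown than in wild type (adjusted p = 0.0109), and the other 6 genes of its list were not called there. Between the knockdowns, where TGFB1 was called, PDGFRB was lower by 0.35 on the log2 scale in HIF-2α knockdown (adjusted p = 0.0105), the monocyte receptor gene CD14 was lower by 0.39 (adjusted p = 0.00899) and RPL11 was higher by 0.76 (adjusted p = 0.0206). The 4 HIF-2α knockdown arrays of PDGFRB and of CD14 lay below the array's median probe set, and the part of these genes in the TGFB1 difference was not tested.

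The other genes of the pathway were read from 6 lists with 77 measured genes, other than the 10. In HIF-1α knockdown against wild type 1 of the 77 was called, as higher, beside 0.962% of all genes. In HIF-2α knockdown against wild type 2 were called, as lower, beside 0.788%, and in HIF-2α against HIF-1α knockdown 5, as lower, beside 2.77%. These lists were chosen with earlier results of these data known, so no enrichment of the pathway is read from the counts. The adjusted p-values of single genes from these lists, given below, carry the same limit and describe these arrays. The differences of the 77, called or not, were negative for 34, 43 and 46 genes in these comparisons. The medians of the 77 were 0.02, -0.02 and -0.02. By role, the 14 SMADs and their regulators, the 10 genes of latent TGF-β storage and activation and the 9 other antagonists held 0 calls in any comparison by limma.

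Among 14 other ligands GDF15, a divergent TGF-β family member secreted under stress, was the 1 called as lower in HIF-2α knockdown. It gave 11.13, 11.09, 11.03 and 10.97 in wild type, 11.38, 11.30, 11.78 and 11.36 with HIF-1α knocked down and 10.20, 10.48, 10.36 and 10.23 in HIF-2α knockdown. The 3 groups did not overlap with one another. GDF15 was 1.67-fold lower in HIF-2α knockdown than in wild type (log2 difference -0.74, SE 0.097, limma adjusted p = 0.00313) and 2.20-fold lower than in HIF-1α knockdown (-1.14, SE 0.097, adjusted p = 3.66e-05). In HIF-1α knockdown it differed from wild type by 0.40 (adjusted p = 0.0714). INHBC, the activin C subunit, had group means of 8.12, 8.24 and 8.20 in wild type and the HIF-1α and HIF-2α knockdowns. INHA, the inhibin α subunit, had means of 7.35, 7.40 and 7.33, and neither passed in a comparison.

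Of 14 measured receptors and coreceptors, ACVR1, a type I receptor for activin and BMP ligands, rose in HIF-1α knockdown. It gave 7.65, 7.58, 7.58 and 7.63 in wild type, 7.82, 7.98, 7.91 and 7.86 with HIF-1α knocked down and 7.76, 7.71, 7.65 and 7.59 in HIF-2α knockdown. HIF-1α knockdown lay above both other groups with no overlap, by 0.29 from wild type (SE 0.054, limma adjusted p = 0.0236), and HIF-2α knockdown was lower than HIF-1α knockdown by 0.22 ± 0.054 (SE) on the log2 scale (adjusted p = 0.0488). Over 21 other settings 8 ended the first ACVR1 call (adjusted p up to 0.130) and 18 the other (up to 0.165). For the first these included leaving out wild type replicate 1 (0.0583), 2 (0.0628) or 4 (0.0592) and HIF-1α knockdown replicate 2 (0.101), 3 (0.0890) or 4 (0.0582). The other lacked the threshold without any 1 array except HIF-2α knockdown replicate 1.

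TGFBR3, the betaglycan coreceptor that presents TGF-β ligands and binds inhibin, gave 10.77, 10.82, 11.03 and 10.80 in wild type. It gave 10.94, 10.88, 11.29 and 11.23 in HIF-1α knockdown and 10.40, 10.57, 10.59 and 10.42 in HIF-2α knockdown, below every array of the other groups. HIF-2α knockdown was 1.51-fold lower than HIF-1α knockdown (log2 difference -0.59, SE 0.094, limma adjusted p = 0.00402). Against wild type the difference of -0.36 did not pass (SE 0.094, adjusted p = 0.101). Over 21 other settings it passed in 2, after quantile normalization (-0.42, adjusted p = 0.0317) and with the replicate block (adjusted p = 0.04998). It did not pass in the other 19 (adjusted p up to 0.3075). The activin type II receptor genes ACVR2A and ACVR2B had differences from wild type of 0.22 and -0.12 in HIF-2α knockdown, with adjusted p of 0.408 and 0.337.

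Among 19 measured target genes CCN2, a matricellular growth factor induced by TGF-β, fell in HIF-2α knockdown. It gave 11.61, 11.46, 11.85 and 11.51 in wild type, 11.62, 11.56, 11.93 and 11.58 with HIF-1α knocked down, while HIF-2α knockdown spanned 10.76 to 11.18. HIF-2α knockdown lay below both other groups, 1.59-fold lower than wild type (SE 0.11, limma adjusted p = 0.0157) and 1.66-fold lower than HIF-1α knockdown (SE 0.11, adjusted p = 0.00327). SNAI2, a transcription factor of epithelial to mesenchymal transition, was lower in HIF-2α than in HIF-1α knockdown by 0.30 ± 0.072 (SE) on the log2 scale (adjusted p = 0.0409). All 4 HIF-2α knockdown arrays and 3 of 4 wild type arrays of SNAI2 lay below the array's median probe set, as did 1 of 4 in HIF-1α knockdown, so the limit given for INHBA holds for its lower group and the size of the difference is uncertain. The SNAI2 call was lost in 10 of 21 other settings, among them the fits without any 1 of HIF-1α knockdown replicates 1, 2 and 3 or HIF-2α knockdown replicates 1, 3 and 4, and without wild type replicate 4. ID2 and ID3, the relatives of ID1, differed from wild type by 0.21 and 0.13 in HIF-2α knockdown, with adjusted p of 0.632 and 0.675. HAMP, the hepcidin gene and a liver target of BMP signalling, differed by -0.32 (adjusted p = 0.379).

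When the 3 arrays with upwards shifted lowest values were left out, only 2 wild type arrays remained and the differences from wild type in HIF-2α knockdown were -0.66 for GDF15 (limma adjusted p = 0.123) and -0.68 for CCN2 (adjusted p = 0.132). The TGFBR3 difference between the knockdowns was then -0.57 (adjusted p = 0.0517), so all 3 calls were lost in that fit, while GDF15 (adjusted p = 0.00480) and CCN2 (0.0451) still passed between the knockdowns.

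**Figure D4:**
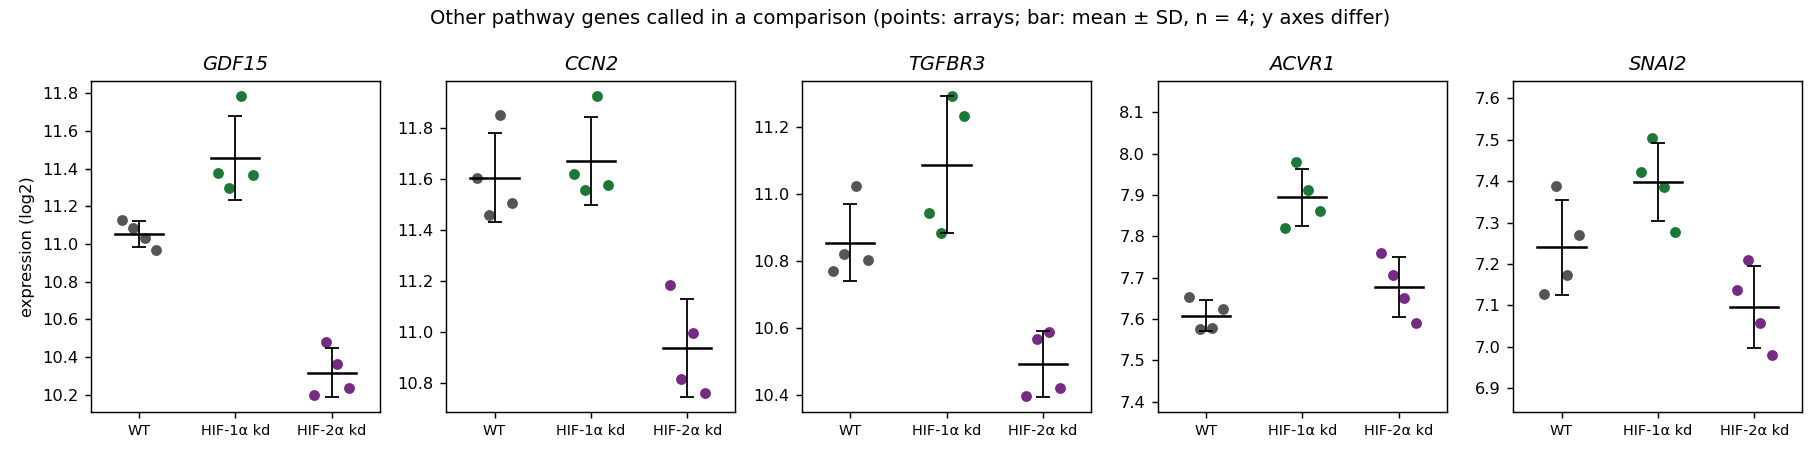
Expression (y axis, log2 value; the axes differ between panels) of the 5 pathway genes outside the list of 10 that were called in a comparison, for wild type spheroids (WT) and the HIF-1α and HIF-2α knockdowns (kd). Points are arrays and bars are the mean ± SD of 4 arrays. GDF15, CCN2 and TGFBR3 in HIF-2α knockdown lie below all other arrays, at 10.20 to 10.48, 10.76 to 11.18 and 10.40 to 10.59.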

How the data were processed

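RNA of HepG2 spheroids was isolated, amplified with a kit that the labels tie to a small number of microdissected cells, labelled with biotin and measured on 12 Affymetrix arrays, per the labels' protocols. The authors deposited 1 table of log2 values, 32321 probe sets by 12 arrays; the log base was inferred from the range, and no source used here gives the background correction or the normalization. It holds no counts or detection calls, so the number of arrays limits the precision. Probe sets with 1 symbol (19158) were named from the platform annotation, updated by Entrez identifier, and the brightest per gene was kept. Differences were fitted with limma 3.58.1 in R 4.3.3 (lmFit on group means over 12 arrays, eBayes), with Benjamini-Hochberg adjustment over 18404 genes and a threshold of 0.05; no gene was filtered. The design text speaks of 4 different experiments, and p-values measure the spread between arrays. The script was tested on simulated data.

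The members and lists were chosen with earlier results of these data known. Named genes are the 10 members, HIF1A and EPAS1, called genes of the pathway lists (up to 4 per list and comparison by smallest p) and the 5 genes nearest to FST. INHBC, INHA, ACVR2A, ACVR2B, ID2, ID3, HAMP, LYZ, CD68, PTPRC, ACTA2, PECAM1, PDGFRB, CD14 and RPL11 were named after their values were seen. Promoters come from RefSeq (GRCh38.p14).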

Additional observations from a re-analysis of the deposited data

Results flagged for a closer look

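Among 45 groups of 4 arrays (the 10 genes and 5 called pathway genes in 3 groups), 5 held an array far from the other 3 by Dixon's ratio, which chance alone gives in about 5% of groups. FST in wild type replicate 3 was 10.80 against 9.87 to 9.88. FSTL3 in HIF-1α knockdown replicate 4 was 8.08 against 8.25 to 8.27. SMAD7 in HIF-1α knockdown replicate 1 was 8.15 against 7.96 to 7.97. In HIF-1α knockdown replicate 3, CCN2 was 11.93 against 11.56 to 11.62 and GDF15 was 11.78 against 11.30 to 11.38.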

How the results depend on the processing

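The number of members called in HIF-1α knockdown against wild type was 0 in the 21 other settings; the filter on low values removes TGFB2, so its own values have 20. In HIF-2α knockdown against wild type it was 0 with each array centred on its median, without the 3 raised-floor arrays and with only the 8 arrays compared, and 0 to 1 when single arrays were left out (0 without wild type replicate 4 or HIF-2α knockdown replicate 1 or 4). Between the knockdowns it was 1 with centring, the replicate block, trend and robust, without the raised-floor arrays and with only the 8 arrays compared, and 1 to 2 with single arrays left out where TGFB1 was the gene lost. Where the count was 1 in either comparison with HIF-2α knockdown, the gene was FST. The list was selected on FST, so nothing is read from its part in these counts. Genes called in HIF-1α knockdown against wild type were 177 (150 higher, 27 lower) and 254 (140 and 114) after quantile normalization, 85 after centring, 288 with trend and robust, 605 with array weights, 22 without the raised-floor arrays, 396 with 8 arrays and 50 to 483 with single arrays left out. In HIF-2α knockdown against wild type they were 145 (88 and 57), 404 (141 and 263) after quantile normalization, 72 (34 and 38) after centring, 285 with trend and robust, 37 without the raised-floor arrays, 64 with 8 arrays and 61 to 219 with single arrays left out. Between the knockdowns they were 509, 888 after quantile normalization, 337 after centring, 980 with array weights, 259 without the raised-floor arrays and 211 to 618. Fits with fewer arrays have fewer degrees of freedom, and leaving out single arrays gave both lower and higher counts than the main fit. The cause of these moves was not tested.

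Signs turned only for differences that passed in no setting. In HIF-1α knockdown against wild type FSTL3 was 0.0421 with array weights, and without the raised-floor arrays INHBA was 0.0511, INHBB -0.0161, TGFB2 0.0456 and CCN2 -0.00808. In HIF-2α knockdown against wild type INHBE was -0.0369 and BAMBI -0.0110 after quantile normalization, INHBB 0.00224 with array weights, and FSTL3 -0.0358, INHBA 0.00411 and INHBE -0.00844 without the raised-floor arrays. With single arrays left out, HIF-1α knockdown against wild type ranged over -0.0697 to 0.0902 for FSTL3, -0.0542 to 0.0279 for INHBA, -0.0674 to 0.00219 for TGFB2, -0.00427 to 0.11 for SMAD7, -0.0204 to 0.15 for CCN2. HIF-2α knockdown against wild type ranged over -0.0372 to 0.0461 for INHBE and -0.00686 to 0.14 for BAMBI, and the knockdowns over -0.11 to 0.00328 for ID1.

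Same-numbered deviations of wild type and HIF-1α knockdown correlated at 0.17, 0.306, 0.637 and -0.0393 in replicates 1 to 4, those of wild type and HIF-2α knockdown at -0.171 to -0.0266, and those of the knockdowns at 0.0278 to 0.217. No comparison had all 4 above 0.1, and an array matched its own number best in 5 of 24 checks, so the numbers were not taken as pairs, though 3 of 4 in the first comparison correlate. The block lowered the SE of FST from 0.21 to 0.14. With the replicate block 234, 202 and 562 genes were called in the 3 comparisons, and the adjusted p was 0.0688 for TGFB1 and 0.0875 for ACVR1 between the knockdowns and 0.04998 for TGFBR3 in HIF-2α knockdown against wild type; the other calls among the 10 genes, GDF15, CCN2, TGFBR3, ACVR1 and SNAI2 held, and PDGFRB, CD14 and RPL11 were not refitted.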
